A study of Mus musculus with 24 samples.

Results

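MHC class I presents peptides from inside a cell at its surface, and 10 genes of that pathway were followed in mouse T cells. They were chosen by name, as rows of the UMI-corrected count table, and make up 10 of its 55414 genes: the light chain B2m, the heavy chains H2-K1 and H2-D1, the peptide transporter subunits Tap1 and Tap2, the loading factor Tapbp, the immunoproteasome subunits Psmb8, Psmb9 and Psmb10, and the transactivator Nlrc5. All 10 were among the 10566 genes with enough counts to be tested. The study asked how the mitochondrial DNA (mtDNA) lineage affects T cells, and used conplastic mice that all share the C57BL/6J (B6) nuclear genome, so every gene described here has the same nuclear sequence in both strains. The mtDNA-B6 mice (labelled WT) carry B6 mtDNA, and the mtDNA-NZB mice (labelled NZB) carry mtDNA of the NZB strain. Cells labelled TE, described in the study's methods as Tconv CD4+ cells (CD4+ CD25-) isolated from the spleen with magnetic beads, were profiled at rest (RES) or after activation (ACT) with CD3/CD28 beads and, per the methods, IL-2 for 72 h. Each combination of haplotype and state had 6 libraries, 24 in all, and the methods give an age of 2 to 3 months and male sex for most experiments, without stating it for these mice.

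A class I molecule consists of a polymorphic heavy chain and the invariant light chain encoded by B2m. Its peptides are cut by the proteasome, in which the inducible subunits encoded by Psmb8, Psmb9 and Psmb10 can take the place of those encoded by Psmb5, Psmb6 and Psmb7. The peptides are then pumped into the endoplasmic reticulum by the heterodimer of Tap1 and Tap2 and loaded with the help of tapasin, the product of Tapbp. Nlrc5 is the main transcriptional coactivator of the class I genes in lymphocytes, acting through factors bound at a conserved promoter element known as the SXY module, and interferons are known to induce most members of the pathway.

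In the GRCm39 annotation 7 of the 10 genes lie on chromosome 17, 2 on chromosome 8 (Psmb10 and Nlrc5) and B2m on chromosome 2. Psmb9, Tap1, Psmb8 and Tap2 are neighbours within 34.9 kb of the MHC, chr17:34400960-34435829, and the spans of Psmb9 and Tap1 overlap by 743 bases at their starts, on opposite strands. B2m lies at chr2:121977957-121983594 on the + strand. H2-K1 lies at chr17:34214987-34219321 on the - strand, and H2-D1 at chr17:35481691-35486475 on the + strand. RefSeq promoters, read from 250 bases before to 50 bases after the start site (GRCm38.p6), were found for 8 of the 10 genes, with none for Tap2 and Nlrc5. The SXY module holds a half-site of the cyclic AMP response element (X2, TGACG) and a reverse CCAAT box (Y). These 2 parts 20 bases apart, searched on both strands, occurred in the promoters of 27 of 27025 genes (0.0999%). Those 27 included the genes of the light chain and both heavy chains, and also the nonclassical class I gene H2-M3. The 3 stretches are shown because they are what these promoters shared, with the half-site and the reverse CCAAT box in capitals and each read in GRCm39 on the gene's strand, at chr2:121978090-121978119, chr17:34219333-34219362 and chr17:35481969-35481998.
B2m: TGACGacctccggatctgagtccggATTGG
H2-K1: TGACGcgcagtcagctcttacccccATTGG
H2-D1: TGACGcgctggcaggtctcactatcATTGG

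The half-site alone, searched on both strands, was in 23% of all promoters and in those of 5 members (B2m, H2-K1, H2-D1, Tap1 and Psmb9), and the CCAAT box in 41.1% and in those of 6 members, the same 5 and Tapbp. The promoters of Tap1 and Psmb9 overlap on opposite strands, and their half-site and CCAAT box are the same bases, counted once for each gene. A kappaB motif (GGGATTCCC, both strands), the letters bound by NF-kappaB in class I promoters, was in 0.414% of promoters and in those of both heavy chains, with the same 10 bases before it. The interferon response letters GAAANNGAA (both strands) were in 9.76% and, among the members, in that of B2m alone. This search took exact letters only, so it does not show that the other promoters lack an interferon response element. The kappaB stretches are shown with the motif in capitals, at chr17:34219412-34219441 (- strand) and chr17:35481890-35481919 (+ strand) of GRCm39.
H2-K1: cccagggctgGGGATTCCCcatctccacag
H2-D1: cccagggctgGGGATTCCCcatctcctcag

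Libraries held from 51409 to 6449395 UMI counts (unique molecular identifiers, 1 per captured RNA molecule), with group medians from 2898287 to 3437116.5. The smallest, resting mtDNA-NZB replicate 2, held between 2 (Nlrc5) and 180 (H2-K1) counts of each member, and its gene levels are the least certain by counting. All 8 T cell genes were detected, and 2 of them (Cd3d and Thy1) rose in both haplotypes, with sums of 4083 to 7844 CPM at rest and 6474 to 8806 CPM after activation. All 5 activation genes (Il2ra, Tnfrsf4, Tnfrsf9, Mki67 and Ccl22) rose in both haplotypes, and their summed level did not overlap, at 78.1 to 264 CPM (counts scaled to the same total in each library) at rest and 486 to 868 CPM after activation. Markers of other cells moved with the state as well: all 8 myeloid genes and all 8 granulocyte genes fell in both haplotypes, their sums going from 786 to 3664 CPM at rest to 164 to 284 CPM, and from 332 to 15535 CPM to 6.81 to 135 CPM. The sum of 8 B cell genes was 5733 to 17497 CPM at rest and 1122 to 6304 CPM after activation, and 1 of them (Ighm) fell in each haplotype, whereas Cd8a and Cd8b1 rose in both, their sum being 16.9 to 142 CPM at rest and 82 to 534 CPM after activation. Of the other markers, 5 of 6 erythroid genes fell in both haplotypes, and of 4 NK cell genes the 1 tested fell in both and another (Klra8) was at 0 in every library. The 3 dendritic cell genes tested, of 5, fell in both. Platelet genes rose (2 of 2 tested in mtDNA-B6 and 1 in mtDNA-NZB), and Treg genes gave 1 fall in mtDNA-B6 (Ikzf2) and 1 rise in mtDNA-NZB (Foxp3). The part of these other cells in the results below was not tested, and in bulk RNA a change in the share of a cell type and a change in RNA per cell cannot be told apart.

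The immunoproteasome genes, Tap1 and Tapbp rose on activation in both haplotypes, while the heavy chains H2-K1 and H2-D1 did not rise. The light chain B2m passed in neither haplotype, and its mtDNA-B6 interval, -1.54 to 0.83, did not settle a direction. In mtDNA-B6 cells 5 of the 10 genes rose (Psmb8, Psmb9, Psmb10, Tap1 and Tapbp; adjusted p of at most 0.05 by edgeR) against 22.4% of all genes tested, and 2 fell (H2-K1 and H2-D1) against 24.5%. In mtDNA-NZB cells 6 rose (the same 5 and Nlrc5) against 25.2%, and 0 fell against 28.4%. Without resting mtDNA-NZB replicates 2 and 6 the count was also 6, with Tap2 in place of Nlrc5. Over the 10 genes the median log2 difference, activated minus resting, was 0.37 in mtDNA-B6 and 0.61 in mtDNA-NZB cells, beside -0.03 and -0.06 over all genes tested. All 6 activated libraries lay above all 6 resting libraries for Psmb8, Psmb9, Psmb10 and Tap1 in each haplotype, which held upward for 15.4% of all genes in mtDNA-B6 and 11.9% in mtDNA-NZB cells. For 0 of the 10 did the activated libraries all lie below, against 16.4% and 6.95%. Together the 10 genes held a median of 0.925% of the UMI counts of a resting mtDNA-B6 library and 1.07% after activation, and 0.911% and 1.1% in mtDNA-NZB cells.

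**Figure D1:**
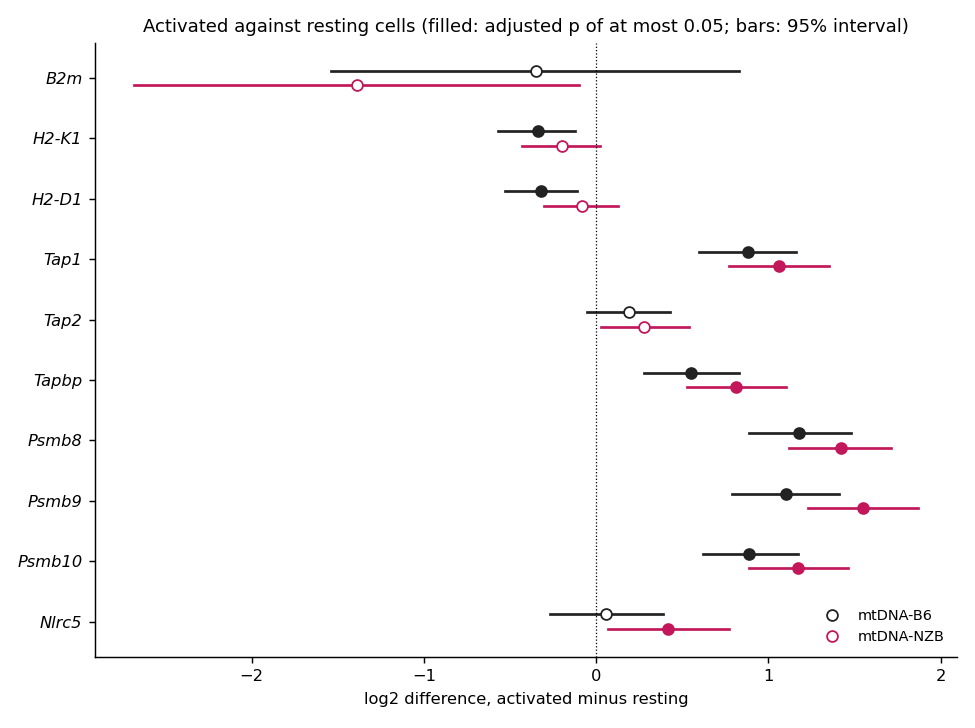
The log2 difference between activated and resting cells is plotted for each gene, in mtDNA-B6 (black) and mtDNA-NZB (pink) cells, with 95% intervals as bars; filled points passed an adjusted p of 0.05. Psmb8, Psmb9, Psmb10, Tap1 and Tapbp lie to the right of 0 in both haplotypes, from 0.55 to 1.55, whereas the heavy chains lie slightly to the left and B2m has the widest interval.

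Psmb8, which encodes the inducible chymotrypsin-like subunit, was the most abundant of the 3 immunoproteasome genes. Its level in resting mtDNA-B6 cells was 753.2 to 953.1 CPM (median 882.7) and in activated cells 1701 to 2199 CPM (median 1966). In mtDNA-NZB cells it was 554.9 to 997.4 CPM (median 916.5) at rest and 1612 to 2443 CPM (median 2318) after activation. The groups of the 2 states were far apart in both haplotypes. Psmb8 rose 2.27-fold in mtDNA-B6 (log2 difference 1.18 ± 0.14 SE, n = 6 per group, adjusted p = 2.82e-07) and 2.67-fold in mtDNA-NZB cells (1.42 ± 0.15, adjusted p = 1.7e-08). Its counted 3′ end overlaps that of Gm20496 on the other strand, which had 20 counts in all, against 110557 of Psmb8.

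Psmb9, the inducible counterpart of Psmb6, gave the largest rise of the 10 in mtDNA-NZB cells. Resting mtDNA-B6 libraries held 222.8 to 279.3 CPM (median 268.5) and activated ones 489.6 to 614 CPM (median 566.3). Resting mtDNA-NZB libraries held 134.5 to 279.6 CPM (median 190.6), with replicates 2, 5 and 6 near 135 CPM and the others at 245.7 or more, and activated ones 536.8 to 699.2 CPM (median 592.6). The rise was 2.14-fold in mtDNA-B6 (1.10 ± 0.15, adjusted p = 1.89e-06) and 2.93-fold in mtDNA-NZB cells (1.55 ± 0.16, adjusted p = 1.41e-08). The last 1000 bases of its transcript reach under Tap1 on the other strand, but overlap no counted 3′ end of another gene.

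Psmb10, the inducible counterpart of Psmb7, lay at 253.5 to 278.4 CPM (median 269.1) in resting and 451.9 to 520.2 CPM (median 502) in activated mtDNA-B6 cells, with little spread among libraries. In mtDNA-NZB cells it was 173.2 to 372.6 CPM (median 267.2) at rest and 421.8 to 645.5 CPM (median 580.5) after activation. Every activated library was again above every resting one of its haplotype, and Psmb10 rose 1.86-fold (0.89 ± 0.13, adjusted p = 5.29e-06) and 2.25-fold (1.17 ± 0.14, adjusted p = 1.41e-07).

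**Figure D2:**
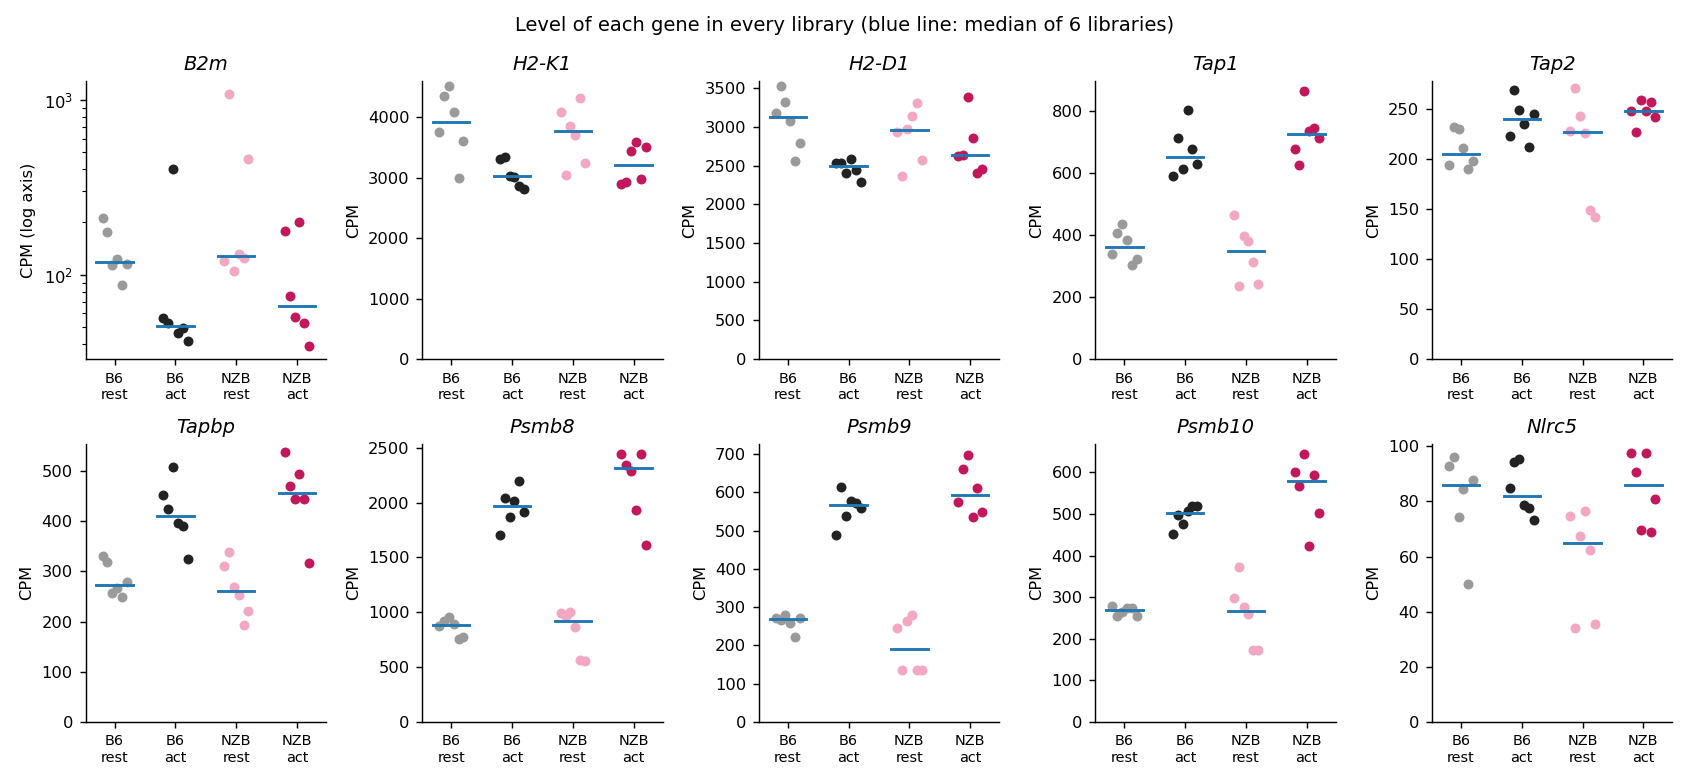
Level of each of the 10 genes in CPM in each of the 24 libraries, by haplotype and state (B6 or NZB, rest or activated), with the median of 6 libraries as a blue line; the B2m panel has a log axis. The activated libraries stand clear above the resting ones for Psmb8, Psmb9, Psmb10 and Tap1, while H2-K1 and H2-D1 overlap between states and B2m spans from 38.9 to 1084 CPM.

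The 2 transporter genes responded unequally. Tap1, which encodes one subunit, was at 304.9 to 435.9 CPM (median 362.9) in resting and 592.7 to 804.4 CPM (median 653.2) in activated mtDNA-B6 cells. Its level in mtDNA-NZB cells was 237.1 to 465 CPM (median 348.6) at rest and 628.2 to 866.7 CPM (median 726.2) after activation. Tap1 rose 1.84-fold in mtDNA-B6 (0.88 ± 0.14, adjusted p = 1.08e-05) and 2.09-fold in mtDNA-NZB cells (1.06 ± 0.14, adjusted p = 7.75e-07), with no overlap between the states.

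Tap2, the partner subunit, did not pass the test in either haplotype. Resting and activated mtDNA-B6 libraries held 189.9 to 231.4 CPM (median 204.2) and 211.6 to 268.9 CPM (median 239.5). Resting and activated mtDNA-NZB libraries held 141.7 to 271 CPM (median 226.5) and 226.4 to 258.2 CPM (median 247.6). The states overlapped in both haplotypes, with log2 differences of 0.19 (95% interval -0.05 to 0.43, adjusted p = 0.19) and 0.28 (0.03 to 0.54, adjusted p = 0.0541). In mtDNA-NZB cells the call for Tap2 turned on single libraries: without resting replicate 2, for example, the difference was 0.36 (adjusted p = 0.0116).

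Tapbp encodes tapasin, which bridges the transporter and the empty class I molecule. It was at 248.2 to 331.3 CPM (median 273.6) in resting and 324.9 to 508.2 CPM (median 410.6) in activated mtDNA-B6 cells. Corresponding levels in mtDNA-NZB cells were 193.4 to 338.8 CPM (median 260.9) and 316 to 537.8 CPM (median 457.7). The states overlapped only at their edges, and Tapbp rose 1.47-fold (0.55 ± 0.13, adjusted p = 0.00137) and 1.76-fold (0.81 ± 0.14, adjusted p = 2.44e-05).

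H2-K1 and H2-D1, the classical heavy chain genes, were the most abundant members, with medians over the 24 libraries of 3394 and 2636 CPM. H2-K1 was at 2993 to 4518 CPM (median 3925) in resting and 2810 to 3341 CPM (median 3023) in the activated mtDNA-B6 group. Its mtDNA-NZB levels were 3049 to 4327 CPM (median 3783) and 2896 to 3600 CPM (median 3215). H2-D1 was at 2557 to 3533 CPM (median 3131) and 2284 to 2585 CPM (median 2490) in mtDNA-B6, and at 2371 to 3316 CPM (median 2961) and 2406 to 3394 CPM (median 2637) in mtDNA-NZB cells. All 4 pairs of groups overlapped.

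In mtDNA-B6 cells both heavy chains fell, H2-K1 to 0.787 of its resting level (-0.34 ± 0.11, adjusted p = 0.011) and H2-D1 to 0.801 (-0.32 ± 0.1, adjusted p = 0.0131). In mtDNA-NZB cells the log2 differences were -0.20 for H2-K1 (95% interval -0.43 to 0.02, adjusted p = 0.114) and -0.08 for H2-D1 (-0.30 to 0.13, adjusted p = 0.515). Both calls in mtDNA-B6 were lost without resting mtDNA-B6 replicate 3, in which H2-K1 was highest (adjusted p = 0.0575 and 0.0514). Both were also lost with no low-count filter (adjusted p = 0.0737 and 0.0879), that of H2-D1 with library set as a term (0.194), and that of H2-K1 with a block by description number (0.0589). All 8 myeloid genes and 1 of 8 B cell genes fell as well, with the sums given above, and their part was not tested. The 2 genes also share sequence, since 11.4% and 14.8% of the 50-base stretches in the last 1000 bases of their transcripts occurred in other class I genes, so reads can be divided between them or dropped.

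B2m gave far fewer counts than the chains it pairs with. Its level was 86.86 to 211 CPM (median 118.8) in resting and 41.6 to 400.2 CPM (median 51.13) in the activated mtDNA-B6 group. Its mtDNA-NZB levels were 104.4 to 1084 CPM (median 127.9) at rest and 38.85 to 199.1 CPM (median 66.14) after activation. In the median resting mtDNA-B6 library there were 32.4 counts of H2-K1 for each count of B2m. Why this gene was counted so rarely was not tested.

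The log2 difference of B2m was -0.35 (95% interval -1.54 to 0.83, adjusted p = 0.638) in mtDNA-B6 and -1.39 (-2.68 to -0.10, adjusted p = 0.0636) in mtDNA-NZB cells. 5 of 6 activated mtDNA-B6 libraries, at 41.6 to 56.5 CPM, lay below all resting ones, and replicate 3, at 400.2 CPM, lay above them all. Without it the difference was -1.47 (adjusted p = 0.0173). With library set as a term and all libraries kept, the mtDNA-B6 difference was 0.43 (adjusted p = 0.749). In mtDNA-NZB cells the largest values came from resting replicate 2 (64 counts) and resting replicate 6 (457.3 CPM), the latter the library with the highest sum of granulocyte genes, and leaving out single libraries moved the difference between -1.75 and -0.93. Without both of these libraries it was -0.25 (adjusted p = 0.726). The gene lies within the span of Patl2 on the opposite strand, which had at most 13 counts in a library.

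Nlrc5, the coactivator, was the least abundant member. It was at 49.99 to 95.98 CPM (median 86.1) in resting and 73.3 to 95.5 CPM (median 81.81) in activated mtDNA-B6 cells, a log2 difference of 0.06 (95% interval -0.27 to 0.39, adjusted p = 0.79). In mtDNA-NZB cells it was at 33.88 to 76.4 CPM (median 64.91) at rest and 69.05 to 97.77 CPM (median 85.87) after activation. There it rose 1.34-fold (0.42 ± 0.17, adjusted p = 0.0418), although the states overlapped. The 2 lowest values were of resting replicates 2 and 6, and without both of them the difference was 0.31 (adjusted p = 0.0877).

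Ratios of 2 genes within a library do not depend on how libraries are scaled, and compare each inducible subunit with the one it replaces. Psmb9/Psmb6 had a median of 1.06 in resting and 1.5 in activated mtDNA-B6 libraries, with no overlap. The mtDNA-NZB medians were 0.773 and 1.4, and there the states overlapped. Resting mtDNA-NZB replicates 2 (8 counts of Psmb9), 5 and 6 were at 0.5, 0.459 and 0.425. Replicates 1, 3 and 4 were at 1.05, 1.06 and 1.12, beside 1.1 to 1.56 in the activated libraries. By the mean log2 ratio, Psmb9/Psmb6 was 1.46-fold higher after activation in mtDNA-B6 (two-sided exact permutation test, p = 0.00216, adjusted p = 0.00649 over 12 tests). In mtDNA-NZB cells it was 1.95-fold higher (exact p = 0.00433, adjusted p = 0.0104). The smallest p possible, 0.00216, is what 6 libraries against 6 allow.

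Psmb10/Psmb7 was 1.27-fold higher in mtDNA-B6 (medians 3.13 and 3.94, exact p = 0.00216, adjusted p = 0.00649) and 1.36-fold higher in mtDNA-NZB cells (medians 4.11 and 4.53, exact p = 0.225, adjusted p = 0.338), where the states overlapped. The highest resting mtDNA-NZB ratio, 7.33, came from replicate 2, the smallest library, with 22 counts of Psmb10. Psmb8/Psmb5 did not pass in either haplotype, with medians of 14.9 and 16.2 in mtDNA-B6 (exact p = 0.444, adjusted p = 0.532) and of 16.1 and 14.6 in mtDNA-NZB cells (exact p = 0.82, adjusted p = 0.82). Resting mtDNA-NZB replicates 2, 5 and 6 were at 11.4, 7.44 and 7.99, below every activated library of that haplotype (13.4 to 16.1). Replicates 1, 3 and 4 were at 22.1, 20.8 and 22.1, above all of those activated libraries. Psmb5 itself rose by 1.05 ± 0.16 and 1.43 ± 0.18 on the log2 scale (adjusted p = 1.03e-05 and 2.48e-07), close to the rise of Psmb8.

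Tap1/Tap2 was 1.61-fold higher after activation in mtDNA-B6 and 1.82-fold higher in mtDNA-NZB cells, with medians going from 1.76 to 2.66 and from 1.7 to 2.94 (exact p = 0.00216 and adjusted p = 0.00649 in each). In both haplotypes every activated library was above every resting one. H2-K1/H2-D1 had medians between 1.17 and 1.29 in the 4 groups, and the activated ratio was 0.985 and 0.922 of the resting one (exact p = 0.649 and 0.171, adjusted p = 0.708 and 0.293). H2-K1/B2m did not pass either (exact p = 0.327 and 0.152, adjusted p = 0.436 and 0.293).

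**Figure D3:**
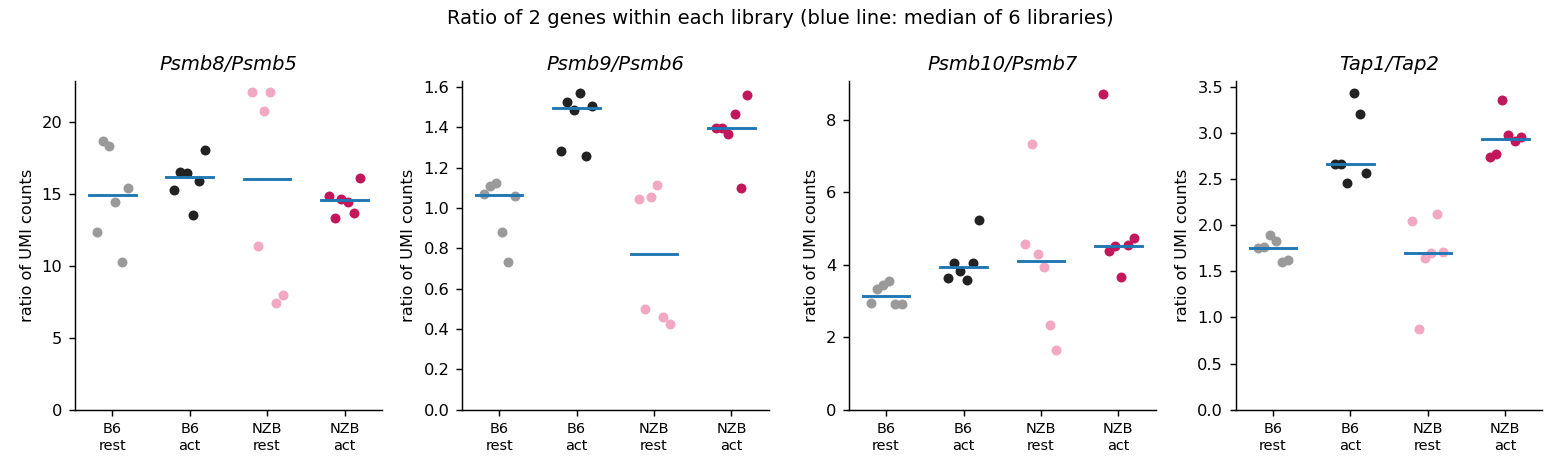
Ratio of the UMI counts of 2 genes within each of the 24 libraries, by haplotype and state, with the median of 6 libraries as a blue line. Psmb9/Psmb6 and Tap1/Tap2 are higher after activation in both haplotypes, although Psmb9/Psmb6 overlaps between states in mtDNA-NZB. The medians of Psmb8/Psmb5 lie between 14.6 and 16.2 in all 4 groups, but resting mtDNA-NZB libraries spread from 7.44 to 22.1.

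The haplotypes were then compared within each state, to ask whether mtDNA lineage was accompanied by other levels of class I genes. At rest 0 of the 10 genes passed the edgeR test, against 2.76% of all genes tested. That share itself depended on the setting: 292 genes passed here, but 0 upward and 1 downward with library set as a term, 39 and 33 with a block by title number, and 30 and 13 with the second count table. Of the 10, 2 had an unadjusted p under 0.05: Nlrc5, with a log2 difference, mtDNA-NZB minus mtDNA-B6, of -0.37 (95% interval -0.71 to -0.02, adjusted p = 0.216) and Psmb9, with -0.34 (-0.66 to -0.02, adjusted p = 0.208). The intervals of the other resting differences, B2m aside, lay between -0.43 and 0.22. After activation 0 of the 10 passed, against 0% of all genes (0 genes by edgeR or DESeq2, with 327 at an unadjusted p under 0.05), and 0 of the 10 had an unadjusted p under 0.05. Intervals there lay between -0.34 and 0.44 apart from that of B2m, which ran from -1.36 to 1.06. DESeq2 gave 0 of the 10 in each state.

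The test of the difference between responses, mtDNA-NZB minus mtDNA-B6, passed for 0 of the 10 genes and for 0% of all genes tested (0 genes by edgeR, with 1512 at an unadjusted p under 0.05, and 1 gene by DESeq2, not a member). Psmb9 had the only unadjusted p under 0.05 among the 10, with a difference of 0.45 (95% interval 0.01 to 0.89, adjusted p = 0.334). The rises of Psmb8, Psmb10, Tap1 and Tapbp differed by 0.23 (-0.18 to 0.64), 0.28 (-0.11 to 0.67), 0.18 (-0.21 to 0.58) and 0.26 (-0.13 to 0.65). For the heavy chains the intervals were -0.18 to 0.46 (H2-K1) and -0.06 to 0.54 (H2-D1), so that the fall called in mtDNA-B6 alone was not shown to differ from the response of mtDNA-NZB cells, and for Nlrc5 the interval was -0.12 to 0.84. These estimates share the 24 libraries with those of each haplotype.

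**Figure D4:**
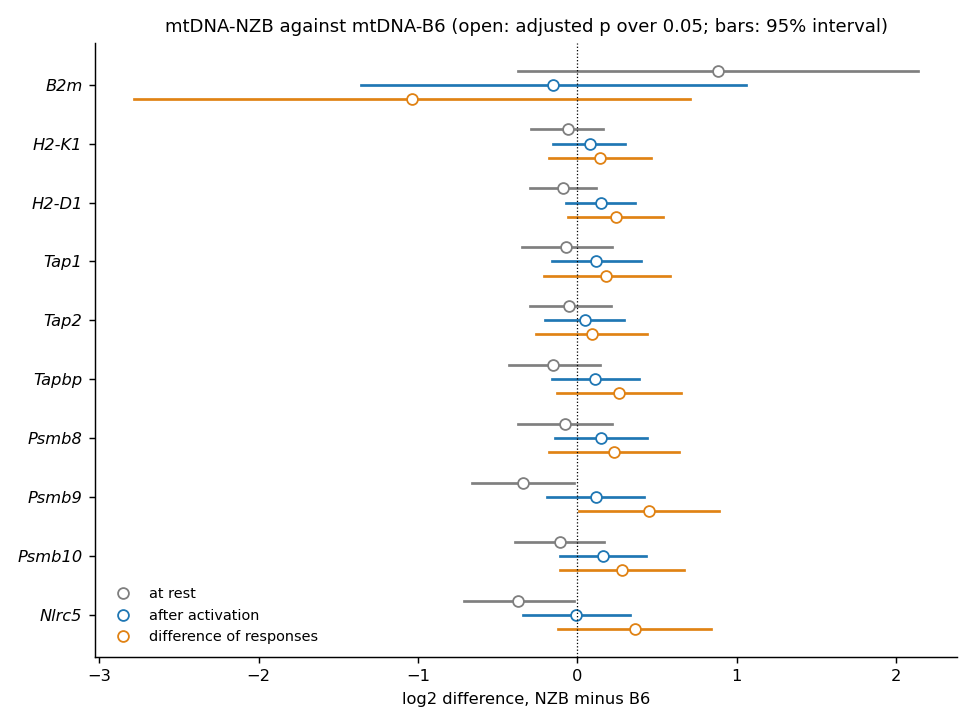
The log2 difference between mtDNA-NZB and mtDNA-B6 cells is plotted for each gene at rest (grey), after activation (blue) and as the difference between the 2 responses to activation (orange), with 95% intervals as bars. All points are open, as 0 of the 10 genes passed in any of these comparisons, and B2m has intervals several times wider than the rest.

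The members also varied among libraries of a group, and they did so together in part. Resting mtDNA-NZB replicates 5 and 6 were low in Psmb8 (562.3 and 554.9 CPM), Psmb10 (173.2 and 173.4 CPM) and Tap2 (148.5 and 141.7 CPM), whereas the other 4 libraries of that group held at least 867.5, 259.1 and 225.3 CPM. H2-K1 was highest of its group in replicate 5 (4327 CPM) and low in replicate 6 (3253 CPM), so the heavy chains did not follow. Once group means were removed, log2 CPM over the 24 libraries correlated at r = 0.83 between Psmb8 and Psmb10, 0.77 between H2-K1 and H2-D1, 0.77 between Tap2 and Psmb8, and 0.76 between Tap1 and Psmb9. H2-K1 and Psmb8 had r = -0.06, and B2m had r between -0.53 (Tap1) and 0.61 (Tapbp). These values are descriptions, since the points share library depth and cell makeup, including the granulocyte genes that set replicate 6 apart (15535 CPM against 332.2 CPM in replicate 5).

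By the 6 genes with the most similar pattern, measured as Pearson's r over the 24 libraries with the mean standardized level of the members, the group was closest to Ptprcap (0.912), which encodes a protein associated with the phosphatase CD45, then Cnp (0.903), Fntb (0.876), H2-T22 (0.874), Ms4a6b (0.872) and Tlr1 (0.86). Within groups their r was between 0.693 and 0.817. Cnp rose in both haplotypes (log2 difference 0.72 ± 0.15 and 0.83 ± 0.15, adjusted p = 0.00025 and 5.43e-05), and the nonclassical class I gene H2-T22 was at 0.17 ± 0.11 in mtDNA-B6 (adjusted p = 0.189) and rose by 0.39 ± 0.11 in mtDNA-NZB cells (adjusted p = 0.00398).

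Beyond the members, 62 further genes of the pathway were listed, of which 53 were tested. In mtDNA-B6 cells 18 rose and 8 fell, where 22.4% of all genes tested rose and 24.5% fell. The mtDNA-NZB counts were 19 and 10, where 25.2% rose and 28.4% fell. The median log2 differences of the 53 were 0.20 and 0.08, beside -0.03 and -0.06 over all genes, and the same shares and medians of all genes are the background of each class described next. Of the genes of peptide supply, 8 of 11 rose and 0 fell in each haplotype, with medians of 0.55 and 0.73. Among them were both parts of the interferon-inducible proteasome activator PA28, Psme1 (0.65 ± 0.12, adjusted p = 5.82e-05, and 0.73 ± 0.12, adjusted p = 1.34e-05) and Psme2 (0.84 ± 0.12, adjusted p = 1.89e-06, and 1.35 ± 0.12, adjusted p = 1.89e-09). Pomp, the proteasome maturation factor, rose by 0.99 ± 0.11 (adjusted p = 6.67e-08) and 1.25 ± 0.11 (adjusted p = 2e-09). The constitutive subunits Psmb6 and Psmb7 both rose by 0.55 in mtDNA-B6, and by 0.73 and 0.66 in mtDNA-NZB cells. Thop1, a cytosolic peptidase, was at 0.42 ± 0.22 in mtDNA-B6 (adjusted p = 0.118) and rose by 1.30 ± 0.24 in mtDNA-NZB cells (adjusted p = 7.88e-05), and the difference between its responses did not pass (0.88 ± 0.33, adjusted p = 0.238).

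Of 7 genes of peptide loading and folding in the endoplasmic reticulum, 3 rose and 1 fell in each haplotype. Pdia3 (ERp57), a partner of tapasin, rose by 0.82 ± 0.16 and 0.68 ± 0.17 (adjusted p = 0.000214 and 0.00184), and Tapbpl, a peptide editor related to tapasin, by 0.70 ± 0.09 and 0.69 ± 0.09 (adjusted p = 4.01e-07 and 6.41e-07). Erap1, the peptidase that trims peptides in this compartment, rose by 0.54 ± 0.17 and 0.77 ± 0.18 (adjusted p = 0.0101 and 0.000876). The chaperone gene Hspa5 fell in both (log2 differences -0.74 and -1.33, adjusted p = 0.00725 and 2.2e-05), and the chaperones Calr and Canx, which serve class I folding, did not pass, at 0.10 and 0.20 in mtDNA-B6 and 0.06 and 0.25 in mtDNA-NZB cells.

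Of 17 nonclassical class I and class I-like genes listed, 9 were tested. There were 0 rises and 4 falls in mtDNA-B6 cells (22.4% and 24.5% of all genes) and 3 rises and 4 falls in the mtDNA-NZB group (25.2% and 28.4%). H2-K2, H2-Q4 and H2-T10 had the largest falls in both, with log2 differences of -1.62, -1.36 and -1.07 in mtDNA-B6 and of -1.43, -1.31 and -0.86 in mtDNA-NZB cells (largest adjusted p 0.000231). H2-T23, which encodes the ligand Qa-1 of CD94/NKG2 receptors, was at 0.20 ± 0.15 in mtDNA-B6 (adjusted p = 0.282) and rose by 0.61 ± 0.15 in mtDNA-NZB cells (adjusted p = 0.00168), and H2-M3 and H2-T22 also rose in the latter. The difference between responses passed for none of these 9 genes. The H2 genes among them are paralogs, and how reads were divided between them was not tested.

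Among 27 regulators of class I transcription, of which 26 were tested, mtDNA-B6 cells had 7 rises and 3 falls (22.4% and 24.5% of all genes) and mtDNA-NZB cells 5 of each (25.2% and 28.4%). Irf8, an interferon regulatory factor, rose by 1.28 ± 0.24 and 1.00 ± 0.25 (adjusted p = 0.000102 and 0.00146). Irf1, which acts directly on class I and immunoproteasome promoters, was at -0.01 ± 0.13 and 0.04 ± 0.13 (adjusted p = 0.939 and 0.812). Ezh2, the catalytic subunit of the Polycomb repressive complex that can silence class I genes, gave the largest rise of the list, by 1.83 ± 0.17 and 2.11 ± 0.18 (adjusted p = 4.28e-09 and 1.34e-09).

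Creb1, whose product binds the cyclic AMP response element, fell in both (log2 differences -0.79 and -1.08, adjusted p = 0.00343 and 0.00031), and Rela, a subunit of NF-kappaB, fell likewise (-0.39 and -0.79, adjusted p = 0.0116 and 1.38e-05). Rfxank, part of the complex on the X box, fell by 0.51 in mtDNA-B6 (adjusted p = 0.0124) and was at -0.28 ± 0.17 in mtDNA-NZB cells (adjusted p = 0.18). Jak1, a kinase of interferon receptors, was at -0.16 ± 0.17 in mtDNA-B6 (adjusted p = 0.458) and fell by 0.66 in mtDNA-NZB cells (adjusted p = 0.00254). At rest, Ifnar1 and Rela were higher in mtDNA-NZB than in mtDNA-B6 cells, by 0.63 ± 0.17 and 0.53 ± 0.13 (adjusted p = 0.043 and 0.0326), the only 2 of the 53 genes to pass between haplotypes in a state. Neither call held with library set (by reads per UMI) as a term, where 0 of all genes tested were higher in mtDNA-NZB cells at rest.

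**Figure D5:**
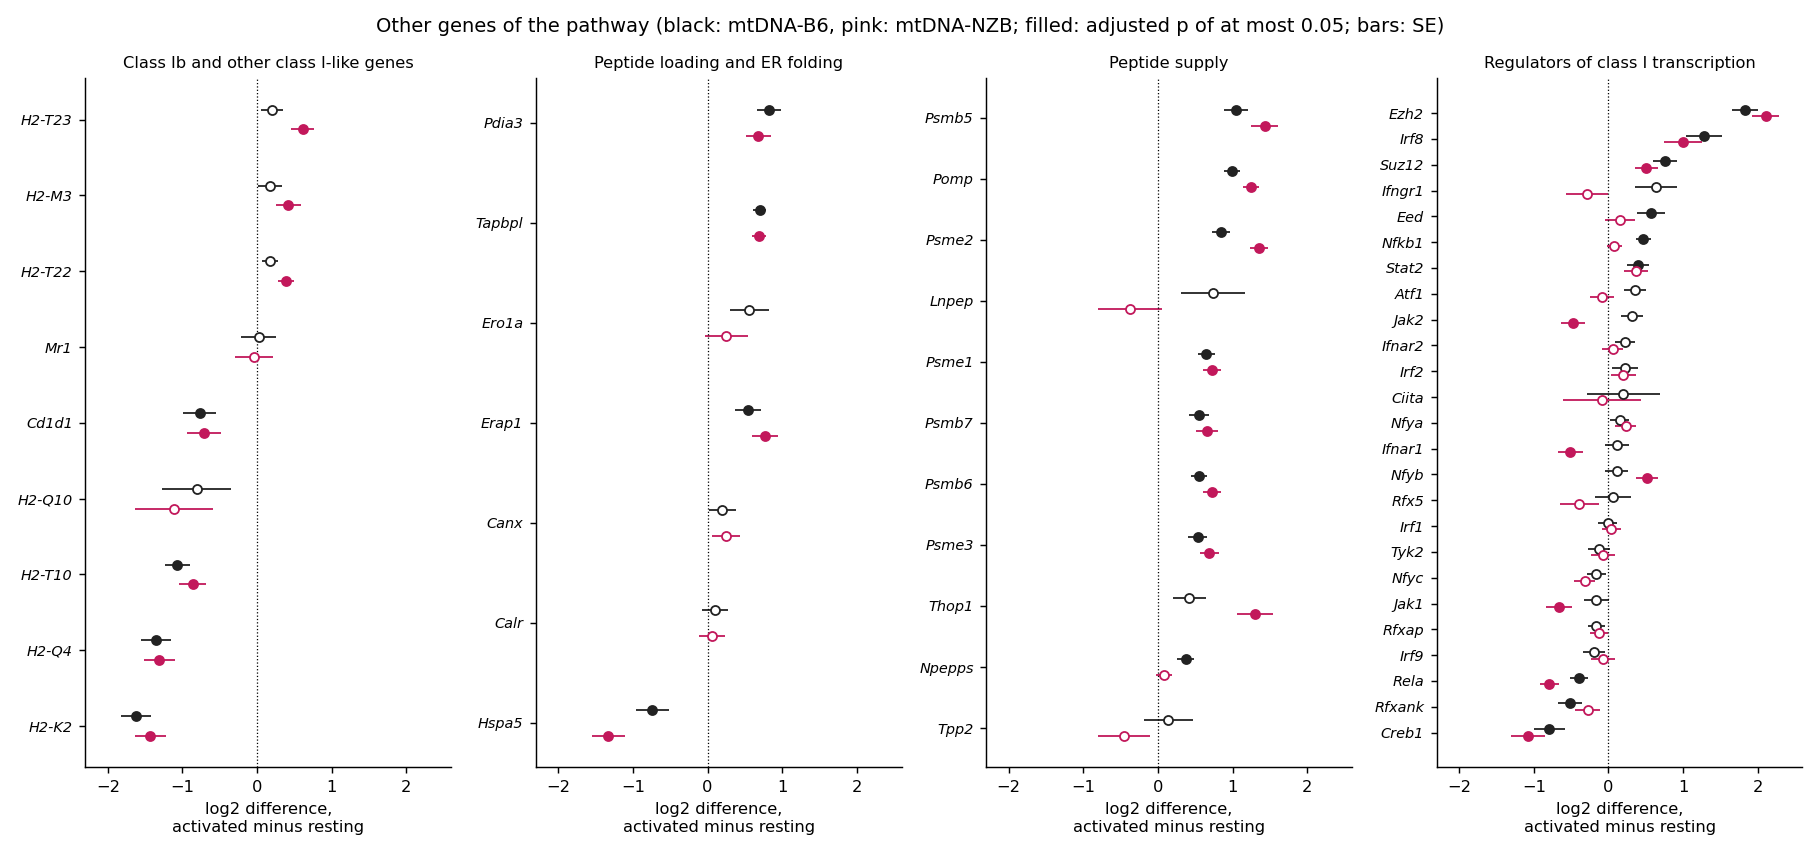
Log2 difference between activated and resting cells for the further pathway genes tested and reported, in mtDNA-B6 (black) and mtDNA-NZB (pink) cells, in 4 panels by role, with SE as bars; filled points passed an adjusted p of 0.05. Genes of peptide supply lie mostly to the right of 0 (8 of 11 rose in each haplotype), while the class Ib and class I-like genes spread from -1.62 to 0.61.

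Of the 10 members, Psmb8, Psmb9, Psmb10, Tap1 and Tapbp rose in both haplotypes, and H2-K1 and H2-D1 fell in mtDNA-B6 cells. A list of 24 interferon-stimulated genes, of which 22 were tested, also went in both directions. In mtDNA-B6 cells 10 rose and 9 fell, where 22.4% of all genes tested rose and 24.5% fell. The mtDNA-NZB counts were 10 and 6, where 25.2% rose and 28.4% fell, so the share of falls there was near that of all genes. The rises in both included Zbp1 and the guanylate-binding and immunity-related GTPases, with Gbp2 at 3.6 ± 0.18 and 3.90 ± 0.20 (adjusted p = 1.4e-13 and 1.83e-13) and Igtp at 2.30 ± 0.13 and 2.31 ± 0.13 (adjusted p = 3.54e-13 and 6.97e-13). Falls in both included Isg15 (log2 differences -1.75 and -2.02, adjusted p = 9.87e-06 and 2.3e-06), Irf7 (-1.61 and -1.15, adjusted p = 6.55e-07 and 6.98e-05) and Mx1 (-2.13 and -1.84, adjusted p = 3.69e-06 and 9.53e-05). Others of the list did not pass, such as Ifit3 at -0.23 ± 0.3 and 0.58 ± 0.35 (adjusted p = 0.563 and 0.163). These genes were named after their values were seen.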

How the data were processed

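RNA of 24 libraries (bulk MARS-seq, which reads the 3′ end of polyadenylated RNA) was analysed, grouped by the genotype and treatment in the sample labels. The authors trimmed reads with cutadapt, dropped those under 30 bases, mapped them with STAR to the last 1000 bases of genes of GRCm39, and counted them with HTSeq. Duplicates by UMI were then collapsed, and the counts corrected for UMI saturation. The deposited values are whole-number counts, not scaled to library size. A second deposited table of larger counts, read here as counts before merging, served as an alternative, and its total divided by the UMI total (reads per UMI) divided the libraries into 3 sets of 8. For 1 column no sample had that name, and it was left out. The methods give 60 ng of input RNA and the labels 30 ng. The strand setting of the counting is not given in the sources used here, so reads of overlapping genes on opposite strands may not be told apart.

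Counts were analysed with edgeR 4.0.16 (limma 3.58.1, R 4.3.3): TMM scaling, filterByExpr, 4 groups of 6 fitted together by quasi-likelihood, and Benjamini-Hochberg adjustment over all 10566 genes tested. A gene was called at an adjusted p of at most 0.05, with no fold cut-off. The SE was the size of the log2 difference divided by the square root of F. CPM are counts of a gene scaled to a common total of the tested genes after TMM, and with 3′ counting they are not divided by length. Ratios of counts within a library were compared with exact permutation tests in scipy on log2 ratios, with Python 3.11.15, and their pairs were chosen after the members' values were seen. Levels of 10 genes are given in every comparison. From each class of the pathway list up to 3 of the largest rises and falls were to be named, and other genes were added for their role after their values were seen. A gene counted in these lists is not reported here by name. Genes of like pattern needed a mean of 10 CPM in a group and no clone name.

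The members and lists were chosen with earlier results of these data known. Among the 60 pairs of libraries sharing a group, counts always differed beyond sampling noise (lowest chi-square per df 2.77), so each was counted as a replicate. The labels do not say whether libraries come from separate mice, so p-values measure the spread between libraries, which may be technical. Gene symbols, spans and transcripts are from GENCODE for GRCm39, which held 54749 of the 55414 identifiers, and those outside it held 0.0272% of the counts. Promoters are from RefSeq (GRCm38.p6), and the windows printed were placed on GRCm39 by exact match, unique on their chromosome. Alternatives were DESeq2 1.42.0 with the study's settings, other scaling, filters, tables, terms and sets of libraries, a replicate block, a fold cut-off, and leaving out each library. The set without resting mtDNA-NZB replicates 2 and 6 was chosen after seeing the data.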

Additional observations from a re-analysis of the deposited data

Results flagged for a closer look

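Of 40 groups examined (10 genes in 4 groups of 6), 2 held a library far from the others by Dixon's test, and chance would give about 1 in 20. Both concerned B2m. Activated mtDNA-B6 replicate 3 held 400 CPM, against 41.6 to 56.5 CPM in the other 5 libraries. Its B2m had 1211 counts with 1.93 reads per UMI, close to the 1.78 to 2.51 of the rest of the group, and Patl2, the gene on the other strand, had 4 counts there. Resting mtDNA-NZB replicate 2 held 1084 CPM, against 104 to 457 CPM in the others, from 64 counts in the smallest library.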

How the results depend on the processing

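Under 11 or 12 other settings and 24 fits that each left out 1 library, 0 members differed between haplotypes at rest, after activation or in their response, and Psmb8, Psmb9, Psmb10, Tap1 and Tapbp rose in both haplotypes except under a fold cut-off of 1 on the log2 scale. With that cut-off 2 members rose (not 5) and 0 fell in mtDNA-B6, and 7 (not 26) and 10 (not 29) listed pathway genes were called in mtDNA-B6 and mtDNA-NZB cells. The number of members that fell in mtDNA-B6 was 0 with no low-count filter and 1 with library set as a term (H2-K1). In mtDNA-NZB cells 1 fell with DESeq2, no filter or the second table (B2m), and 1 with a stricter filter or 21 libraries (H2-K1; without resting mtDNA-NZB replicates 2 and 6 and activated replicate 6). The rise of Nlrc5 was lost under 8 of these settings other than the fold cut-off and without any of 6 single libraries (adjusted p up to 0.178). Leaving out 1 library each gave 0 to 3 falls in mtDNA-B6 and 0 to 1 in mtDNA-NZB cells; 5 rises throughout in mtDNA-B6 and 5 to 7 in mtDNA-NZB cells; and 25 to 29 and 27 to 31 listed pathway genes. The cause of these changes was not tested. Over all genes, the difference between responses passed for 95 genes upward and 18 downward with 21 libraries, and for 0 with 24; no member was among them.

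Numbers shared by resting and activated libraries in the descriptions (9 pairs) and titles (12 pairs) were not used as pairs in the main fit. Deviations from group means correlated above 0.1 in 3 and 4 pairs (range -0.158 to 0.253 and -0.185 to 0.253). Of the libraries with a partner, 4 of 18 and 6 of 24 correlated best with their own number. Per the methods, isolated cells were split into resting and activated portions. Libraries may therefore share a mouse, which such weak correlations cannot exclude. With a replicate block by description number 1 member fell in mtDNA-B6 (H2-D1; H2-K1 had an adjusted p of 0.0589), and 5 rose in each haplotype. With a block by title number 5 and 7 rose.

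Libraries of the sets by reads per UMI were unevenly spread (activated mtDNA-B6 5 of 6 in set 1, resting 0), so set and state are partly confounded. Within sets Psmb8, Psmb9, Psmb10 and Tap1 had positive differences in 4 of 4 comparisons, 0.55 to 1.90 on the log2 scale, some against a single library. Only the shallowest library, with 8 counts of Psmb9 and 2 of Nlrc5, limited single genes by depth.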
